A study of Rattus norvegicus with 12 samples.

Results

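Cytosolic ribosomal protein genes encode the proteins that, with ribosomal RNA, build the large and small subunits of the ribosome in the cytoplasm. They were taken here by their symbols (Rpl or Rps and a number, Rplp0 to Rplp2, and Rpsa) from probe sets that the array annotation assigns to a single gene, with the probe set of highest mean kept for each gene. This gave 48 genes from 55 probe sets, 33 of the large and 15 of the small subunit, out of 14217 genes with a probe set of their own. Of the 79 ribosomal protein genes usually counted in a rat ribosome, 42 are among them (29 of 47 large and 13 of 32 small), 28 were measured only by probe sets that the annotation assigns to several genes, and 9 had neither kind. The other 6 members, Rpl3l, Rpl7l1, Rpl26l1, Rpl39l1, Rps27l and Rps4y2, are paralogues outside the usual set.

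The samples were the hypothalamic arcuate nucleus (ARC), a centre of appetite control, cut by laser capture from 12 male Wistar rats aged 3 months. The 6 recuperated rats had mothers on an 8% protein diet and were then suckled by control dams, and the 6 control rats were offspring of control dams. All were weaned onto standard chow. Recuperated litters were also made smaller and all-male, so that maternal diet, litter size and litter composition cannot be told apart. Each array carried amplified RNA of 1 animal, and the study's methods count animals as litters.

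In cells, ribosomal proteins are made in near equal amounts and those left unassembled are degraded. Their mRNAs are among the most abundant in a cell. They typically begin at a C followed by a run of pyrimidines, the 5′ terminal oligopyrimidine (TOP) tract, through which the kinase mTORC1 and the RNA-binding protein LARP1 control their translation and stability. In neurons of the ARC, mTORC1 is known as a sensor of amino acids and leptin, which is the setting in which these genes are of interest after a low-protein pregnancy.

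RefSeq start regions were searched for such pyrimidine runs in 43 of the 48 genes (GRCr8 assembly), the other 5 having no entry in the table used. Within 20 bases either side of the annotated transcription start, on the coding strand, CTTTC was found in 18 of 43 genes (41.9%, against 4.97% of all 33469 rat promoters), CTCTT in 14 (32.6%, against 5.56%) and CTTCC in 14 (32.6%, against 8.28%). The first 2 overlap in CTCTTTC. At least 1 of the 3 was present in 27 genes (62.8%, against 16.1% of all promoters), and on the opposite strand in 3 (6.98%, against 17.1%). CCGGAAG, which resembles the binding sequence of ETS family factors, was present on the coding strand in 1 gene (2.33%, against 1.2%). The windows listed run from 15 bases before to 15 bases after the annotated start, on the coding strand, with matches to the 3 pyrimidine motifs in capitals. They show the members that the results turn on, first those with a match and then those without.
Rpl35a (chr11:81235007-81235036, minus strand): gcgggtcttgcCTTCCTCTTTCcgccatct
Rpl35 (chr3:43165907-43165936, minus strand): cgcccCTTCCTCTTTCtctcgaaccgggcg
Rpl34 (chr2:221962269-221962298, minus strand): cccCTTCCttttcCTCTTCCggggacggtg
Rpl5 (chr14:1995211-1995240, minus strand): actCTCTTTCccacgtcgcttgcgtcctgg
Rps3 (chr1:163195762-163195791, minus strand): ttcCTTTCagcggcgcgcggcagcaagatg
Rps15 (chr7:10068101-10068130, minus strand): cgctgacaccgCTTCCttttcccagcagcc
Rplp0 (chr12:46718376-46718405, minus strand): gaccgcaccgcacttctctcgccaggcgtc
Rpl24 (chr11:58128391-58128420, minus strand): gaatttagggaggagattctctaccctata
Rpl26l1 (chr10:17029014-17029043, minus strand): aaatgtcatttccgggcctgcgcacacacc
Rps27l (chr8:76443643-76443672, plus strand): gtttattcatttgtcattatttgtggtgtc
Rpl35a and Rpl35 share the run CTTCCTCTTTC, and Rplp0 carries a pyrimidine run, cttctctc, that matches none of the 3 motifs. Within 20 bases either side of the start, wider than the windows listed, 1 of the 6 paralogues had a match and 5 had none. Among usual members, those with a match within the same 20 bases had a median log2 fold change of −0.12 (26 genes, 23 below 0). Those without had −0.14 (11 genes, 10 below 0). A match describes these letters only, and the annotated start may not be the one used in the ARC.

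Of the 12 arrays, 1 went against its label and was kept in the comparison, with values also given without it. On recuperated array 4, markers of ARC neurons were the lowest of the 12 arrays for 8 of 9 genes, and all 5 markers of the neighbouring ventromedial nucleus (VMN) were the highest. Npy, the orexigenic peptide of ARC neurons, had 7.17 log2 units there, against 10.58 to 11.76 on the other 11 arrays, and Nr5a1, the factor that defines VMN neurons, had 8.86 against 3.35 to 5.98. The mean of the ARC list was 7.25 on this array and 9.26 to 9.65 on the other recuperated arrays, against 9.44 to 9.62 on control arrays, and the mean of the VMN list was 9.48 there and 6.25 to 7.33 on the other recuperated arrays, against 6.34 to 7.69 on control arrays. On the same array, 8 of 9 tanycyte and ependymal markers and 7 of 8 microglial markers were the lowest of the 12 (ties counted), and 7 of 10 neuronal and 5 of 7 oligodendrocyte markers were the highest. Astrocyte markers were lowest there for 2 of 8 genes and highest for 1, and endothelial markers highest for 1 of 7. On the other 11 arrays the ARC markers were above the array median, except Pomc, which was below it on all 12, and Slc6a3, which was above it on 5. In a bulk sample, a lower signal from fewer cells of a type and from less RNA per cell cannot be told apart.

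The central comparison asked whether ribosomal protein transcripts differed between recuperated and control ARC in adulthood. No member differed past the threshold. By limma, 0 of 48 genes were higher at P under 0.05 (1.45% of all 31042 probe sets were) and 0 were lower (2.0% of all probe sets). No adjusted p passed either (0 of 48 members, 0.0% of all probe sets, smallest adjusted p of a member 0.999). The per-gene test that the methods name, on the same values, put 5 members lower at P under 0.05 (against 2.24% of all probe sets) and 0 after Benjamini-Hochberg adjustment. The direction was nonetheless mostly the same: 41 of 48 genes had a negative log2 fold change, meaning a lower mean in recuperated rats, against 56.4% of all probe sets and 588 of the 880 with a mean above 11 log2 units. The median log2 fold change was −0.12 over the members, against −0.03 over all probe sets and −0.04 over those 880. The members' values moved together across the arrays, so the 41 are not separate results. Their mean pairwise correlation was 0.42, against 0.01 over all probe sets and 0.03 over those 880. By an exact two-sided permutation test over the 924 ways to divide the arrays, whose smallest p is 0.00216, 4 members were lower at p under 0.05 (8.33%, against 2.3% of all probe sets) and 0 were higher (against 1.22%). These were Rps3, Rps3a, Rpl30 and Rpl35a, each lowest on recuperated array 4. Without that array their log2 fold changes were −0.17, −0.09, −0.18 and −0.09, and the permutation test was not repeated. The study's own cut-off also asks for a fold change of 1.3, which is 0.38 on the log2 scale. No member above the array median on all 12 arrays reached that size (of the dimmer ones Rpl39l1 did), and for 18 of these 40 genes the 95% interval lay wholly inside it, the intervals together spanning −0.74 (Rps15) to 0.26 (Rps28). In no member did the groups fail to overlap, against 0.139% of all probe sets.

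These calls shifted with single arrays. Without recuperated array 1, 4 of 48 members were lower at P under 0.05, against 2.98% of all probe sets. Without recuperated array 2, 3 or 6 or control array 5, 1 of 48 was lower each time, a share near that of all probe sets (1.95%, 2.11%, 1.77% and 2.45% in that order). Without recuperated array 4, Rpl26l1 was higher at P under 0.05 (log2 fold change 0.43; 1 of 48, against 1.72% of all probe sets), 38 of 48 genes had a negative fold change and the median was −0.08, against 56.2% of all probe sets below 0 and a median of −0.03. The median of the large subunit then moved to −0.08, against −0.13 with all arrays, and that of the small subunit to −0.05, against −0.10.

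**Figure D1:**
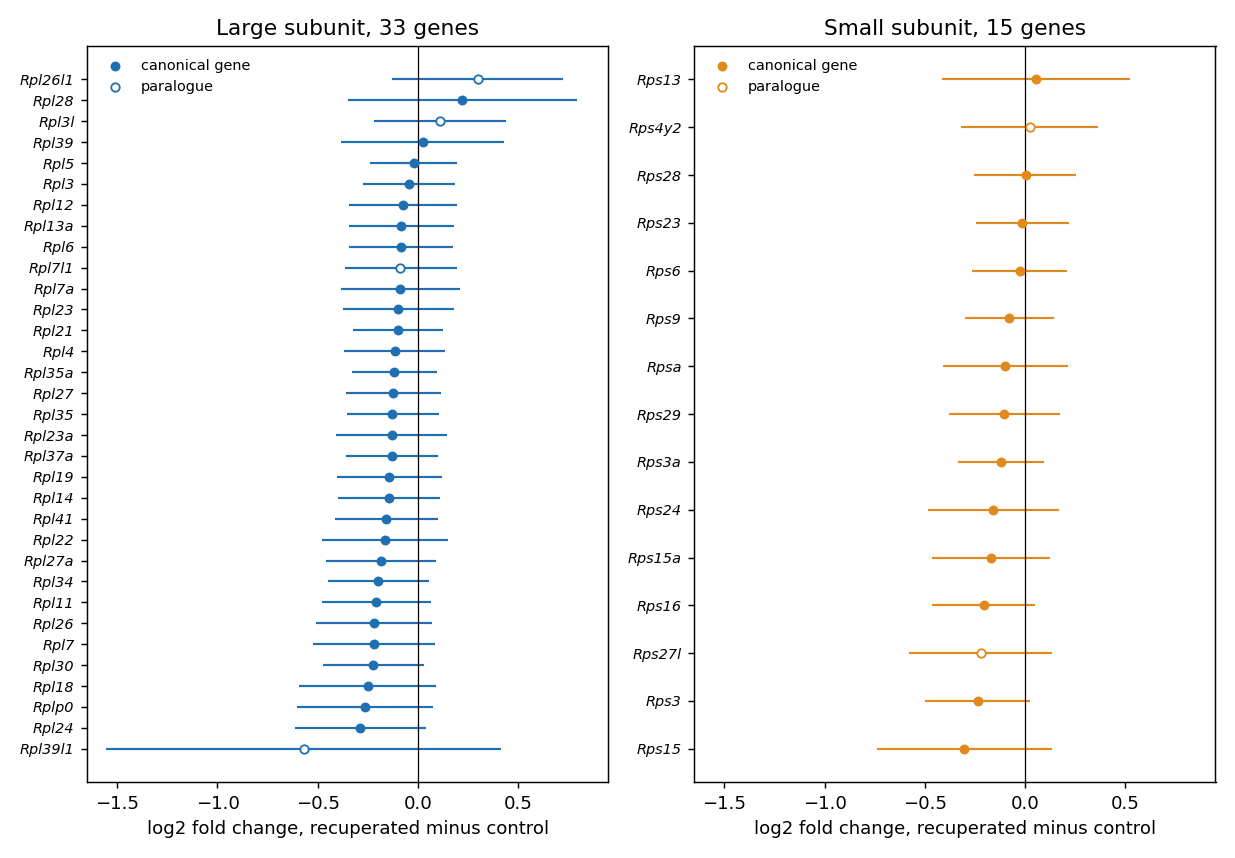
Log2 fold change (recuperated minus control, log2 units) of each gene as a point with its 95% interval from limma as a line, the 33 large subunit genes on the left and the 15 small subunit genes on the right, with usual (canonical) genes as filled and paralogues as open points. Every interval includes 0, and 41 of the 48 points lie below it.

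The large subunit carries the peptidyl transferase centre, the exit tunnel and the stalk that recruits translation factors. Of its 33 genes, 29 lay below 0 and 4 above it in log2 fold change, with a median of −0.13. Rpl24, which forms a bridge to the small subunit, ran from 10.55 to 11.34 log2 units with a median of 10.97 in recuperated rats, and from 11.06 to 11.45 with a median of 11.29 in control rats. Recuperated arrays 1, 3 and 5 lay below every control array and the other 3 within their range. The log2 fold change was −0.29 ± 0.15 (SE), with limma P = 0.0797 and exact permutation p = 0.0823. Unlike most members, Rpl24 was not lowest on recuperated array 4 but on recuperated array 3.

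Rplp0, the scaffold of the stalk, had 10.67, 11.28 and 11.68 log2 units (lowest, median, highest) in recuperated rats, against 11.26, 11.50 and 11.71 in control rats. Recuperated array 4 was the lowest of the 12 and recuperated array 1 among the 3 highest, so that the groups overlapped widely. Its log2 fold change was −0.27 ± 0.16 (exact permutation p = 0.0952). Rpl12, at the base of the stalk, differed by −0.08 ± 0.13 (exact permutation p = 0.496). Without recuperated array 4 the values were −0.15 for Rplp0 and −0.01 for Rpl12. Rplp1 and Rplp2, the acidic proteins that form the stalk's arms, had no probe set of their own.

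Rpl5 and Rpl11 bind 5S ribosomal RNA and, when free of the ribosome, the p53 regulator Mdm2.  Rpl5, whose signal varied least of all members (SD 0.08 over 12 arrays), had 12.70, 12.86 and 12.88 log2 units in recuperated rats, against 12.77, 12.82 and 13.04 in control rats. That is a log2 fold change of −0.02 ± 0.10, with a 95% interval from −0.24 to 0.19. Rpl11 had 11.60, 12.03 and 12.22 log2 units in recuperated rats, against 12.08, 12.16 and 12.29 in control rats. Recuperated arrays 3, 4, 5 and 6 were below the lowest control array, and its log2 fold change was −0.21 ± 0.13 (exact permutation p = 0.0823), or −0.13 without recuperated array 4. The difference between the 2 genes was not tested.

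Rpl26, which lies by the exit tunnel, had 12.05, 12.36 and 12.50 log2 units in recuperated rats, against 12.23, 12.49 and 12.77 in control rats (log2 fold change −0.22 ± 0.14, exact permutation p = 0.0952). Rpl35a ran from 12.19 to 12.47 log2 units in recuperated rats and from 12.39 to 12.53 in control rats. The difference was small, −0.12 ± 0.10, and the spread within groups was small too (SD 0.11 in recuperated and 0.05 in control rats). The exact permutation p was 0.0411. By limma, whose SE also draws on the spread of all probe sets, P was 0.26. Rpl34 differed by −0.20 ± 0.12 (exact permutation p = 0.0563). Rpl3, a protein close to the peptidyl transferase centre, differed by only −0.04 ± 0.11, and Rpl7 by −0.22 ± 0.14 (exact permutation p = 0.141).

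Rpl30 needs its signal beside its p. Its probe set read 4.10, 4.31 and 4.57 log2 units in recuperated rats and 4.40, 4.47 and 4.70 in control rats, a log2 fold change of −0.22 ± 0.12 (exact permutation p = 0.0325), but was below the array median of 6.26 on all 12 arrays. The probe set of Rpl28 was similarly dim, above the array median on 3 of 12 arrays. It had 5.43, 5.80 and 6.33 log2 units in recuperated rats, against 4.67, 5.60 and 6.33 in control rats, a log2 fold change of 0.22 ± 0.27 (exact permutation p = 0.478), or 0.04 without control array 1. Rpl39 and Rps13 were also near or below the median, with log2 fold changes of 0.02 ± 0.19 and 0.05 ± 0.22. Of the 7 members with a positive fold change, 4 were above the array median on fewer than 6 arrays. Among the 40 members above it on all 12 arrays, 39 had a negative fold change, with a median of −0.13.

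The small subunit binds mRNA and holds the decoding centre. Of its 15 genes, 12 lay below 0 and 3 above it in log2 fold change, with a median of −0.10. Rps3, which lines the mRNA entry channel, had the smallest limma P of all members. It had 12.27, 12.66 and 12.83 log2 units in recuperated rats, against 12.77, 12.84 and 13.03 in control rats. Recuperated arrays 3, 4, 5 and 6 lay below the lowest control array and arrays 1 and 2 within the control range. The log2 fold change was −0.24 ± 0.12, with limma P = 0.0729 and exact permutation p = 0.0303.

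Rps15, near the decoding centre, had the widest spread of the bright members. Its values were 10.998, 11.63 and 12.30 log2 units in recuperated rats, against 11.62, 11.86 and 12.39 in control rats. Recuperated array 4 was the lowest and recuperated array 1 matched the second highest control array, so that its log2 fold change of −0.30 ± 0.20 had an exact permutation p of 0.195. Without recuperated array 4 it was −0.17. Rps16, in the head of the subunit, had 11.30, 11.56 and 11.73 log2 units in recuperated rats, against 11.44, 11.77 and 11.85 in control rats (−0.21 ± 0.12, exact permutation p = 0.0584). Rps3a was tighter, at 12.53, 12.70 and 12.75 log2 units in recuperated rats, against 12.67, 12.78 and 12.88 in control rats (−0.12 ± 0.10, exact permutation p = 0.0411).

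Rps6, the subunit protein phosphorylated by S6 kinase downstream of mTORC1, had 12.52, 12.83 and 12.96 log2 units in recuperated rats and 12.64, 12.84 and 12.93 in control rats. Its medians were nearly the same, and the log2 fold change was −0.03 ± 0.11 with a 95% interval from −0.26 to 0.21. Rps9 differed by −0.08 ± 0.10 and Rps28 by 0.00 ± 0.12. Rpsa, also known as the laminin receptor precursor, differed by −0.10 ± 0.15, and its recuperated array 4 stood at 11.98 log2 units while the other 5 recuperated arrays had 12.58 to 12.92. Without that array the log2 fold change was 0.01. Rack1, a small subunit protein whose symbol is outside the rule, had a mean of 11.27 log2 units in recuperated rats and 11.39 in control rats (−0.12 ± 0.13, exact permutation p = 0.368). Fau and, of the large subunit, Rpl36al had no probe set of their own.

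**Figure D2:**
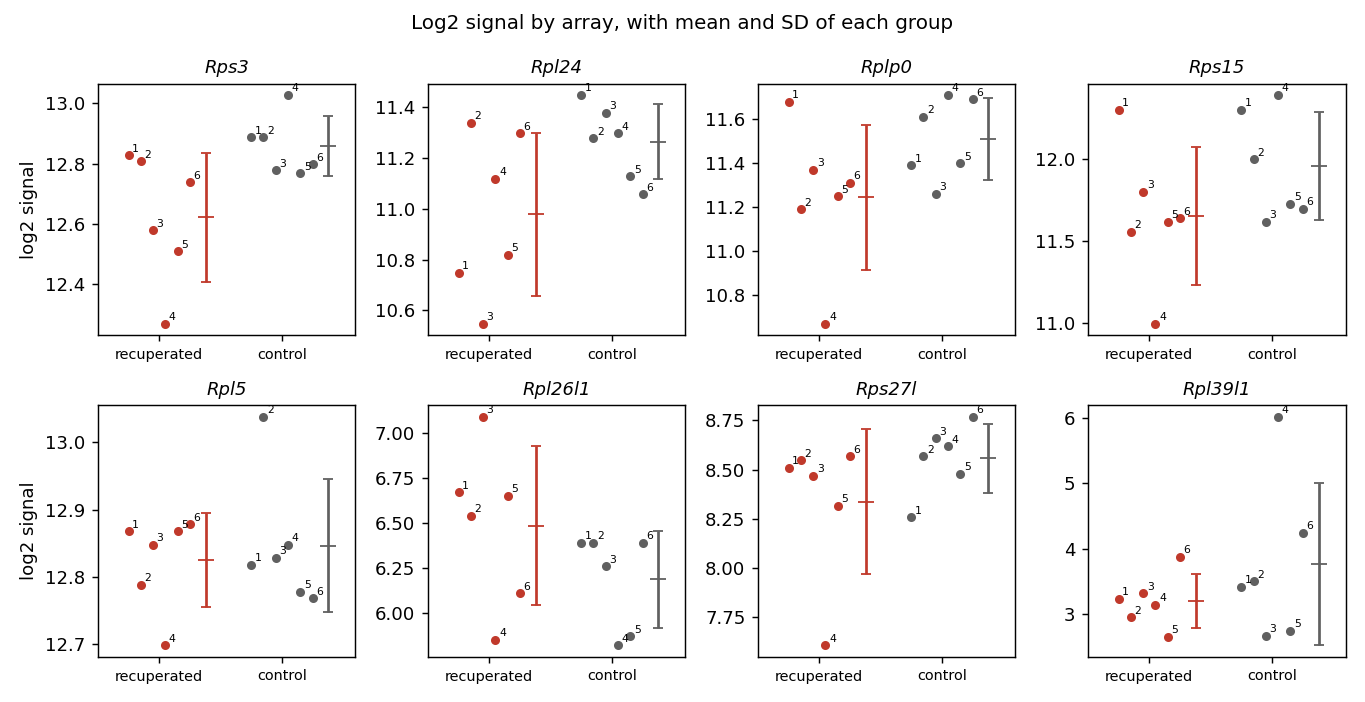
Log2 signal of 8 genes on each array, recuperated on the left and control on the right of each panel, with the animal number beside each point and the group mean and SD (n = 6) as a bar. Each panel has its own vertical range, which does not start at 0, and in Rps3, Rplp0, Rps15, Rpl5 and Rps27l recuperated array 4 is the lowest of the 12.

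The paralogues were split in direction. Of the 6, 3 were above 0 and 3 below, with a median log2 fold change of −0.03. Of the 42 usual members, 38 were below 0, with a median of −0.12. The difference between these sets was not tested. Rpl26l1 had 5.85, 6.59 and 7.09 log2 units in recuperated rats, against 5.82, 6.32 and 6.39 in control rats. Recuperated arrays 1, 2, 3 and 5 were above every control array and arrays 4 and 6 were within the control range. The log2 fold change was 0.30 ± 0.20 (exact permutation p = 0.197), or 0.18 without recuperated array 3. With all arrays, that of its partner Rpl26 was −0.22. The probe set of Rpl26l1 was near the array median of 6.26, with a mean of 6.33 log2 units, and lay above it on only 7 arrays. Rps27l, a target of p53, had 7.61, 8.49 and 8.57 log2 units in recuperated rats, against 8.26, 8.59 and 8.77 in control rats (−0.22 ± 0.17, exact permutation p = 0.203). Its lowest value came from recuperated array 4, without which the log2 fold change was −0.08.

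Rpl7l1, a nucleolar protein of ribosome assembly, differed by −0.09 ± 0.13. Rpl3l, which replaces Rpl3 in muscle, was dim on all 12 arrays and differed by 0.11 ± 0.15, and Rps4y2, dim as well, by 0.02 ± 0.16. Rpl39l1 had the largest spread of all members. Its probe set read 2.65, 3.18 and 3.88 log2 units in recuperated rats and 2.67, 3.46 and 6.02 in control rats. Control array 4 alone gave the top value, and the log2 fold change was −0.57 ± 0.46 (exact permutation p = 0.366), or −0.12 without that array.

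Where a gene had several probe sets, they did not always give the same size of change. For Rps24 the kept probe set gave −0.16 and a dim one 0.13. For Rpsa the kept probe set gave −0.10, and the others −0.35 (exact permutation p = 0.039) and −0.15. For Rpl14 the values were −0.14 and −0.38. For Rpl7 they were −0.22 and −0.41, the second with limma P = 0.0268 and exact permutation p = 0.0346. The 34 probe sets that the annotation assigns to several genes, at least 1 of them a usual ribosomal protein gene, were summarised after the members' values were seen. Of these, 33 had a negative log2 fold change, with a median of −0.15, and 4 reached P under 0.05, against 3.45% of all probe sets in either direction. The genes behind them cannot be told apart. Of these 34 probe sets, 26 had their lowest value on recuperated array 4, where 14.9% of all probe sets did. Their median deviation there was −0.49 log2 units from each probe set's own mean over 12 arrays. Their fold changes without that array were not summarised.

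The members moved together from array to array. Taking each gene's deviation from its own mean over 12 arrays, the median over the 48 genes was 0.03, 0.02, −0.01, −0.31, −0.12 and 0.04 log2 units on recuperated arrays 1 to 6. It was 0.09, 0.12, 0.03, 0.19, −0.03 and 0.02 on control arrays 1 to 6. Recuperated array 4 was the lowest, with 45 of 48 genes below their own mean, and control array 4 the highest. Of the 48 genes, 34 had their lowest value of all on recuperated array 4 (ties counted for each array). There 14.9% of all probe sets did, and 265 of the 880 with a mean above 11 log2 units. On control array 4, 22 of the 48 had their highest value, against 8.66% of all probe sets and 90 of those 880. Recuperated array 4 is the array with low ARC and high VMN markers described above, and the part of that difference in the ribosomal protein values was not tested. Control array 4 had ARC and VMN marker means of 9.62 and 7.05 log2 units, inside the range of the other control arrays for VMN (6.34 to 7.69) and the highest of the control arrays for ARC. The difference between 3′ and 5′ probe sets of actin, a sign of RNA and amplification quality, was 1.57 ± 0.36 log2 units in recuperated rats and 1.47 ± 0.20 in control rats (SD, n = 6 each, exact permutation p = 0.576). On recuperated array 4 it was 1.96, the highest of the 12, and on control array 4 it was 1.41. The same measure for Gapdh was 2.08 ± 0.34 log2 units in recuperated rats and 1.91 ± 0.40 in control rats (exact permutation p = 0.463), and recuperated array 4, at 1.84, was within the range of the others (1.49 to 2.63).

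**Figure D3:**
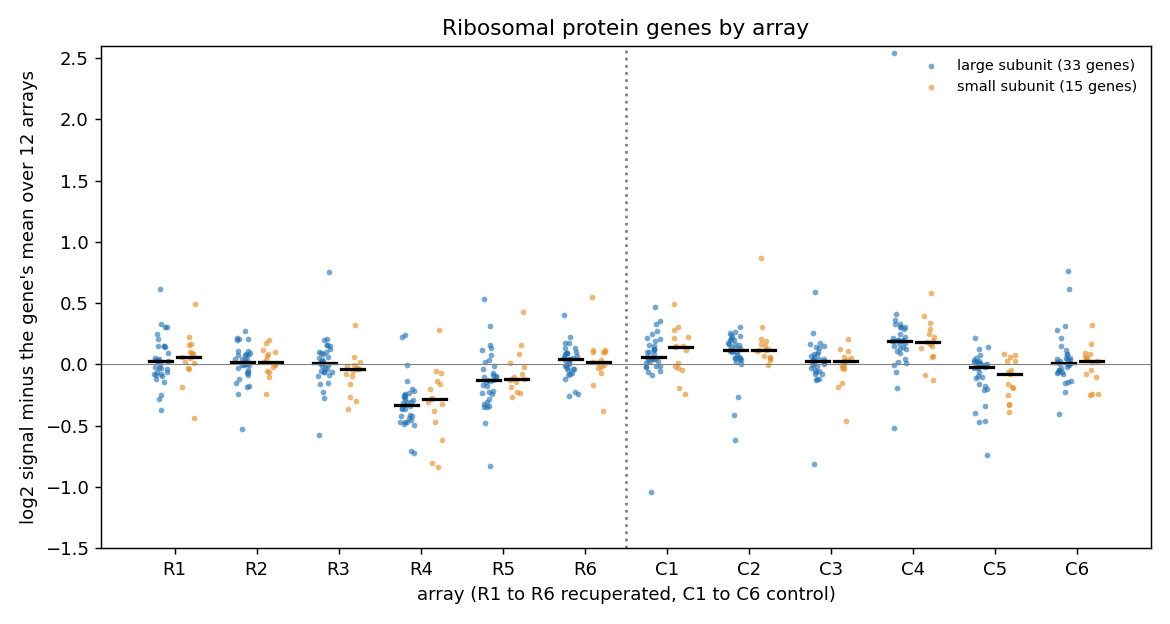
Log2 signal of each gene minus its own mean over 12 arrays, by array, with recuperated arrays R1 to R6 on the left and control arrays C1 to C6 on the right, points for genes and black lines for the median of each subunit. The medians are lowest on R4 and highest on C4, and both subunits move alike.

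The mean pairwise Pearson correlation among the 48 genes over the 12 arrays was 0.42, and 0.39 after each group's mean was removed. It was 0.56 among the 40 genes above the median on every array, 0.49 among usual members, 0.02 among the 6 paralogues and 0.16 among 73 mitochondrial ribosomal protein genes. Over all probe sets it was 0.01, and over the 880 with a mean above 11 log2 units 0.03. The arrays share 1 amplification method and 1 normalisation, so these values are descriptions. Without recuperated array 4 it was 0.24 among the 48 genes and 0.33 among the 40. The genes closest to the mean of the other bright members were Rpl35 (r = 0.97), Rps3 (0.95) and Rps3a (0.94), and the farthest were Rps4y2 (−0.33), Rpl28 (−0.29) and Rpl3l (−0.03), each of the last 3 a dim probe set. The members' SD over the arrays had a median of 0.19 log2 units.

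The balance of large and small subunit transcripts differed between the groups by less than the spread between arrays. The mean over the 33 large subunit genes was 10.67 ± 0.14 log2 units in recuperated rats and 10.79 ± 0.10 in control rats (SD, n = 6 each). The mean over the 15 small subunit genes was 11.18 ± 0.13 log2 units in recuperated rats and 11.29 ± 0.12 in control rats. The large minus the small mean was −0.52 ± 0.05 in recuperated rats and −0.51 ± 0.05 in control rats, a difference of −0.01 that is smaller than the SD of either group. Array by array it ran from −0.58 to −0.43 in recuperated rats and from −0.60 to −0.46 in control rats, and on recuperated array 4 it was −0.52. The absolute gap reflects which probe sets are in each list and is no measure of subunit amounts.

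**Figure D4:**
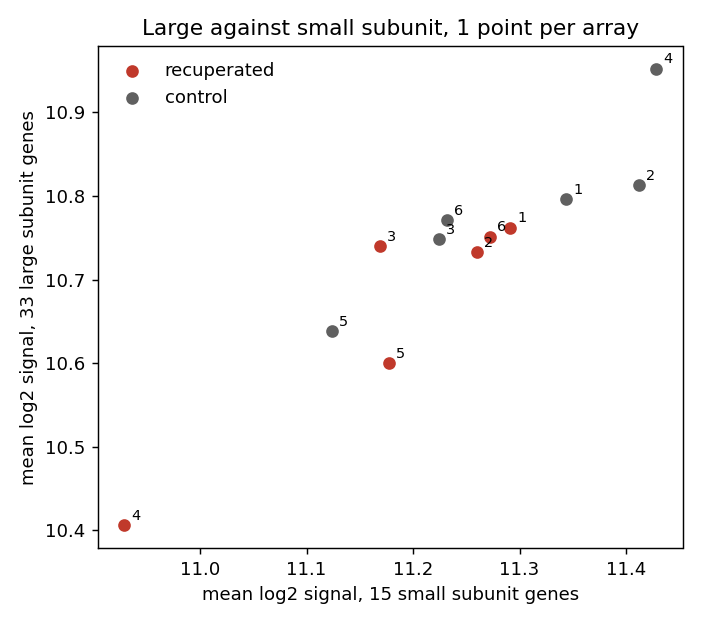
Mean log2 signal of the 33 large subunit genes (vertical) against that of the 15 small subunit genes (horizontal), 1 point per array with its animal number, recuperated and control arrays in different colours. The axes do not start at 0, and recuperated array 4 lies lowest and control array 4 highest on both.

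Ribosomes are assembled in the nucleolus by factors that make and modify ribosomal RNA, and the other TOP mRNAs encode mainly elongation and initiation factors. None of the genes on these lists reached limma P under 0.05 in either direction, where 3.45% of all probe sets did. Of 12 further TOP mRNAs, 10 had a negative log2 fold change, with a median of −0.07. Eef2, the translocation factor, differed by −0.17 ± 0.16 (exact permutation p = 0.303), and Eef1d, an exchange factor subunit, by 0.04 ± 0.11. Of 10 genes that control TOP mRNAs, 6 were positive and 4 negative, with a median of 0.05. Mlst8, a subunit of the mTOR complexes, had a mean of 7.06 log2 units in recuperated rats and 6.79 in control rats (0.27 ± 0.17, exact permutation p = 0.134). Eif4ebp1, the translation repressor that mTORC1 phosphorylates, differed by −0.24 ± 0.17 (exact permutation p = 0.18) and was above the array median on 3 of 12 arrays.

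Of 13 genes of ribosomal RNA synthesis, 7 were negative and 6 positive, with a median of −0.07. Ttf1, the terminator of RNA polymerase I, differed by −0.36 ± 0.20 (exact permutation p = 0.132) and Myc, which drives ribosome production, by 0.56 ± 0.33 (exact permutation p = 0.216). Myc was above the array median on 2 of 12 arrays and Ttf1 on 4. Of 8 genes of small nucleolar ribonucleoproteins, 5 were negative and 3 positive, with a median of −0.02. Fbl, the ribosomal RNA methyltransferase fibrillarin, differed by −0.18 ± 0.13 (exact permutation p = 0.119), and Gar1, of the pseudouridylation complex, by 0.02 ± 0.15.

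Of 20 assembly factors of the large subunit, 12 were negative and 8 positive, with a median of −0.05. Efl1, the GTPase that helps release Eif6, differed by −0.39 ± 0.21 (exact permutation p = 0.115), and Nip7 by 0.11 ± 0.13. Of 20 assembly factors of the small subunit, 9 were negative and 11 positive, with a median of 0.01. Emg1, a methyltransferase of 18S ribosomal RNA, had 8.19, 8.64 and 8.80 log2 units in recuperated rats, against 8.72, 8.78 and 8.87 in control rats. Its log2 fold change was −0.20 ± 0.12, with limma P = 0.115 and exact permutation p = 0.013. Of all probe sets, 2.3% were lower at exact permutation p under 0.05. Riok3, a kinase of small subunit maturation, differed by 0.22 ± 0.13 (exact permutation p = 0.0758). Mitochondrial ribosomal proteins, which build the separate ribosome of mitochondria, had 56 negative fold changes among 73 genes, with a median of −0.06, and 1 of the 73 reached P under 0.05, a share below the 3.45% of all probe sets.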

How the data were processed

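The authors hybridised amplified RNA to an Affymetrix rat array and deposited log2 expression values after robust multi-array averaging (RMA); for this step, Affymetrix Expression Console is given by the submitters' processing notes and GeneSpring by the study's methods. Versions are not given in the sources used here. RMA makes the distributions of all arrays alike, so a shift of all transcripts cannot be seen, and precision is set by having 6 arrays a group. The table holds 31099 probe sets, of which 57 controls were set aside. Of the 31042 tested, 20826 carry 1 gene symbol, 436 several and 9780 none. Each array's median (6.21 to 6.30) was subtracted and their common mean, 6.26, added back, so levels and fold changes share a scale. The groups were compared over all 31042 probe sets with limma 3.58.1 (lmFit, eBayes; R 4.3.3), with Benjamini-Hochberg adjustment, and single genes also with an exact permutation test over 924 arrangements; the fit was tested on simulated data. Where nothing else is said, SE is limma's. Levels of different probe sets were not set against each other. Permutation and t-test p-values rest on the spread between these animals for the gene itself. Those of limma, with its SEs and intervals, also draw on the spread of all probe sets. The median SD over the 12 arrays was 0.315 log2 units for all probe sets and 0.189 for members. For the 880 probe sets with a mean above 11 log2 units it was 0.161, below that of the members.

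The members and gene lists were chosen with earlier results of these data known. Named genes were the 8 negative members with the smallest P and, of up to 8 positive ones, all 7, the 4 with the largest and the 4 with the smallest SD, the paralogues and their partners, the stalk and 5S proteins, Rpsa, Rps6, Fau, Rpl36al and Rack1, the 4 whose probe sets differed most, and, of each other list, the smallest P in each direction. Rpl35, Rpl7a and Rps23 were named after their values were seen. Alternatives were no median subtraction, quantile normalisation, a filter on dim probe sets, the animal number as a block, array weights, a t-test named in the methods, averaging a gene's probe sets, and leaving out each array.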

Additional observations from a re-analysis of the deposited data

Results flagged for a closer look

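Among 70 sets of 6 values checked, 5 had a value far from the other 5 of its group (the gap to its neighbour over the whole range above Dixon's critical value for 6 values). Chance alone gives about 1 such flag in 20 sets. Rps27l read 7.608 log2 units on recuperated array 4, where the other recuperated arrays had 8.318 to 8.568. Rpsa read 11.978 on the same array, where the others had 12.578 to 12.918, and the mean over the 15 small subunit genes was 10.929 there, with 11.169 to 11.291 on the others. Rpl5 read 13.038 on control array 2, with 12.768 to 12.848 on the other control arrays. The array's 5S ribosomal RNA control probe set read 3.648 on control array 3, with 4.398 to 4.778 on the other control arrays.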

How the results depend on the processing

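The count of members passing adjusted p under 0.05 stayed at 0 under each alternative run. The count lower at P under 0.05 was 5 by the methods' t-test (Rpl30, Rpl34, Rpl35a, Rps3 and Rps3a), 1 (Rpl7) with a gene's probe sets averaged, and 0 to 4 when 1 array was left out. The count higher was 0 to 1 when 1 array was left out. With the 1.3-fold cut-off as well, no member passed limma's P in either direction. The number of members with a negative fold change, a measure added after seeing the data, was 40 without median subtraction (median −0.10, against −0.01 over all probe sets, 51.8% of them below 0), 38 after quantile normalisation (median −0.09) and 39 with array weights. The sign of 10 of the 48 differences turned under at least 1 change of scaling, weights or left-out array, 8 of them of genes described above and the others Rpl7a (array weights) and Rps23 (3 scalings or weights and 3 left-out arrays). Rpl3 stood at 0.003 and Rps4y2 at −0.132 with array weights, and Rpl5 at 0.002 and Rps6 at 0.011 after quantile normalisation. When 1 array was left out, the log2 fold change ran from −0.07 to 0.004 for Rpl3, from −0.082 to 0.12 for Rpl39, from −0.037 to 0.017 for Rpl5, from −0.053 to 0.231 for Rps13, from −0.075 to 0.039 for Rps28, from −0.062 to 0.1 for Rps4y2, from −0.062 to 0.027 for Rps6 and from −0.174 to 0.014 for Rpsa. The cause of these turns was not tested.

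With the animal number as a replicate block, 41 members were negative and 0 passed P under 0.05 (smallest 0.128). Deviations of same-numbered arrays correlated at −0.16 to 0.08, and 1 of 6 recuperated arrays correlated best with its own number, so the numbers were not taken to pair animals.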
